A study of Mus musculus with 4 samples.

Results

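The cartilage collagens are the chains of types II, IX, X, XI and XXVII, encoded by *Col2a1*, *Col9a1*, *Col9a2*, *Col9a3*, *Col10a1*, *Col11a1*, *Col11a2* and *Col27a1*. These 8 genes were taken by symbol from the 23284 genes of the count files. RNA had been sequenced from limb cells of C57BL/6J mouse embryos at E13.5 that were sorted by FACS for GFP and stained with propidium iodide to leave out dead cells. The GFP comes from *Osr1* GCE, a knock-in of eGFP and CreERT2 into *Osr1*, a zinc finger transcription factor of muscle connective tissue. The 2 *Osr1* GCE/+ samples came from embryos with 1 GCE allele and 1 intact allele, and the 2 *Osr1* GCE/GCE samples from embryos in which both alleles carry the knock-in. Both genotypes thus carry GCE, no wild-type sample was compared, and the sort follows the activity of the *Osr1* locus in both.

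Each sample was 1 embryo, and the counts of a sample summed to between 52121596 and 61402140. Levels are given as CPM, the counts scaled to a common library size with TMM factors, and 3 counts amount to 0.049 to 0.0574 CPM. *Osr1* had 81.9 and 79.1 CPM in GCE/+ replicates 1 and 2 and 11.9 and 13.9 CPM in GCE/GCE replicates 1 and 2. GCE/GCE replicate 1 stood apart in *Xist*, which is transcribed from the inactive X chromosome of female cells, with 1142 CPM against at most 2.63 CPM in the other samples. The labels call the cells mesenchymal, and 8 fibroblast markers, types I and III collagen among them, summed to 16611 to 21837 CPM. The chondrocyte markers given further on summed to 232 to 501 CPM. That list leaves out collagens, so the sums are not of like genes, and the 8 cartilage collagens alone summed to 987 to 2082 CPM. The RNA is from bulk samples, in which more cells of a type and more RNA per cell cannot be told apart.

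Collagens are trimers of chains with a Gly-X-Y repeat. In hyaline cartilage, thin fibrils are built mainly of type II collagen, a homotrimer of the *Col2a1* product. Type XI collagen is copolymerized in the core of these fibrils and joins the products of *Col11a1* and *Col11a2* with a chain encoded by *Col2a1*. Type IX collagen, a collagen that attaches to fibrils and whose helix is interrupted, decorates their surface and joins the products of *Col9a1*, *Col9a2* and *Col9a3*. Type X forms networks around hypertrophic chondrocytes, the late stage before bone replaces cartilage, and type XXVII is a further fibrillar collagen of cartilage. SOX9, with SOX5 and SOX6, is the known activator of *Col2a1*, *Col9a1*, *Col11a2* and other genes of this group. The comparison of GCE/GCE with GCE/+ cells asks whether these genes differ in connective tissue progenitors that lack *Osr1*.

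Promoter windows from 250 bases before to 50 bases after a RefSeq transcription start were read for 6 of the 8 genes, which have 7 such windows in GRCm38.p6. Those of the 3 genes that passed the test below and of *Col10a1*, the gene with the lowest level, are shown to let the starts of these genes be compared. Capitals mark the letters of motifs that were searched on both strands, namely the SOX-type ACAAAG and ACAAT, the Odd-skipped family's ACAGTAGC, the GC box CCGCCC and the TATA box TATAAA. All 4 lie on the plus strand and are given 5′ to 3′.
Col9a1, upstream start (chr1:24177360-24177659): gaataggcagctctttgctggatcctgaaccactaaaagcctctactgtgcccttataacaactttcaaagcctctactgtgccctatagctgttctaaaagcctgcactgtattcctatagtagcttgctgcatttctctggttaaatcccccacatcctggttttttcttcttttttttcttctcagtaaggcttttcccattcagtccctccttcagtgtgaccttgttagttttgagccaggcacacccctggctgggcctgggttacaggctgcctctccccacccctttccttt
Col9a2 (chr4:121039316-121039615): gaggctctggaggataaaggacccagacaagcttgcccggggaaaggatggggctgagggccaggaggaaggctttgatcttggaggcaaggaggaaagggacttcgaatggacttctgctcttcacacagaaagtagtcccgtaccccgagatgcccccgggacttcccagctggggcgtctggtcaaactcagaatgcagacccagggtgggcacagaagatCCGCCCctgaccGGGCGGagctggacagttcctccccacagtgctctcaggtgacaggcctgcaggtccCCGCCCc
Col11a1 (chr3:114030290-114030589): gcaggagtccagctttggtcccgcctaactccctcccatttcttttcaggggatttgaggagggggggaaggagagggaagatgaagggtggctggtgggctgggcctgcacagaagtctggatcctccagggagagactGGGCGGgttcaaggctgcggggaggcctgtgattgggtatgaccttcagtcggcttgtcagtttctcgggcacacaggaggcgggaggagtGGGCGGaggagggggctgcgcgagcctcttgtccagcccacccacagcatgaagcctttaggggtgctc
Col10a1 (chr10:34389731-34390030): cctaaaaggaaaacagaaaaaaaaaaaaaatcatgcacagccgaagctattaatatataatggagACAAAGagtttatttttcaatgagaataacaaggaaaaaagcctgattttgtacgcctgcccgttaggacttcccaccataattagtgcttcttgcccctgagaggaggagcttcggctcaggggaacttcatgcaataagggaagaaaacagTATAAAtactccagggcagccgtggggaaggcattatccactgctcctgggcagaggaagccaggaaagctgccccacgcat

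The GC box was found 3 times in the window of *Col9a2* and 2 times in each of those of *Col11a1*, *Col11a2* and *Col27a1*. It is in 35.7% of all 32851 promoter windows of this length. Neither window of *Col9a1* held any of the 5 motifs. ACAAAG was found in the window of *Col10a1* alone and is in 18.7% of all windows, and the TATA box, in 13.6% of all windows, was found in those of *Col10a1* and *Col11a2*. ACAAT and ACAGTAGC, in 31.0% and 0.898% of all windows, were in none of the 7. A match or its lack describes these letters in these windows only.

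In every sample *Col2a1* and *Col11a1* had the highest CPM of the 8 genes and *Col10a1* the lowest. Per kilobase of the longest coding transcript in GENCODE M21, the order began with *Col2a1*, *Col11a1* and *Col9a2* and ended with *Col11a2* and *Col10a1* in both GCE/+ embryos. *Col27a1*, *Col9a3* and *Col9a1* lay between these. *Col2a1* had 70.3 and 112 CPM per kb in GCE/+ cells and 155 and 172 CPM per kb in GCE/GCE cells, which put it at rank 9, 8, 8 and 6 of the 43 collagen genes in GCE/+ replicates 1 and 2 and GCE/GCE replicates 1 and 2. *Col10a1* was at rank 41 or 42. Neighbours in this order were not always apart, since *Col27a1* had 20.0 and 21.8 CPM per kb in the GCE/+ embryos, where *Col9a3* had 15.9 and 25.6 and *Col9a1* had 12.6 and 22.2, and so changed places with both. *Col11a1* had 33.4 and 42.3 CPM per kb and *Col9a2* 30.8 and 37.1, so *Col11a1* was the higher within each embryo although their ranges overlapped.

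**Figure D1:**
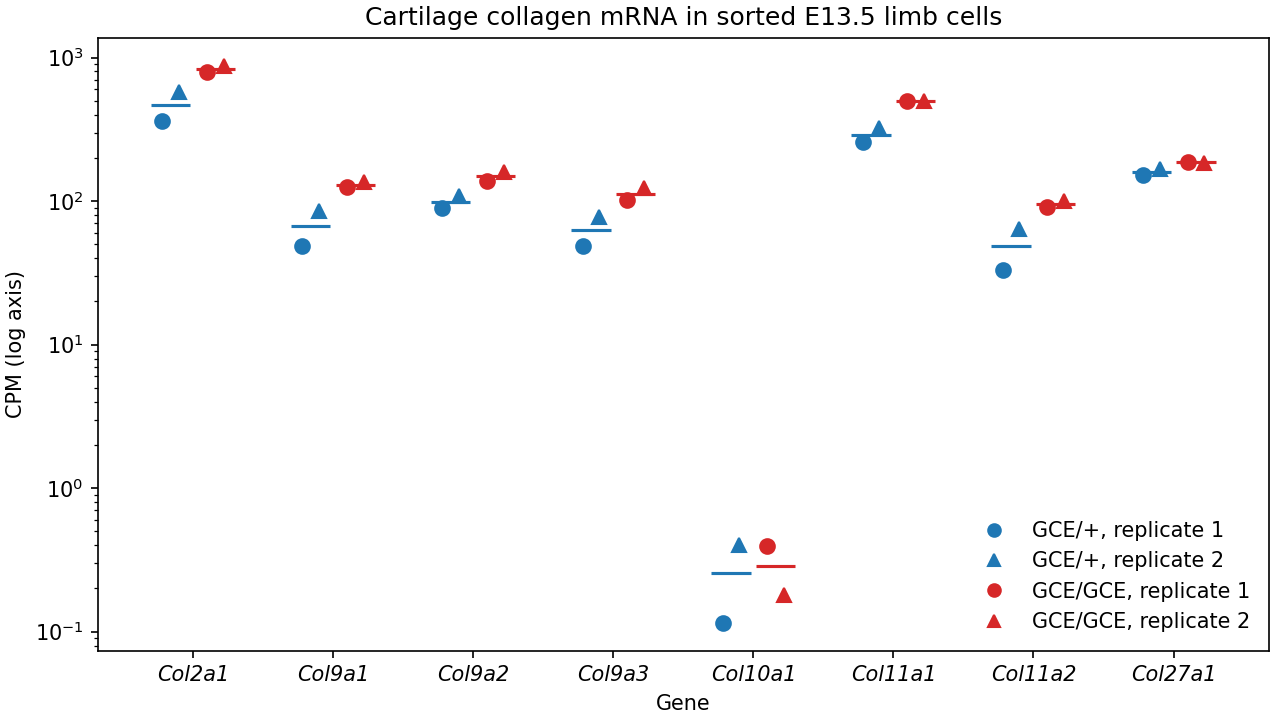
CPM (log axis) of the 8 cartilage collagen genes in each of the 4 samples, with horizontal lines at the mean of the 2 samples of a genotype. For each gene but *Col10a1*, both GCE/GCE points lie above both GCE/+ points, as for *Col2a1* with 359 and 571 CPM against 789.8 and 878 CPM.

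*Col2a1*, on chromosome 15 of GRCm38 from 97975602 to 98004695 with 54 exons, encodes the only chain of type II collagen and took 36.4% to 42.2% of the counts of the 8 genes. It had 359 and 571 CPM in GCE/+ replicates 1 and 2 and 789.8 and 878 CPM in GCE/GCE replicates 1 and 2. Both GCE/GCE embryos were above both GCE/+ embryos, and GCE/+ replicate 1 was the lowest by far. The fold change was 1.79 (95% interval 1.32 to 2.43), or 0.84 on the log2 scale (SE 0.19, Benjamini-Hochberg adjusted p = 0.106 by edgeR's quasi-likelihood test). By edgeR it lay just outside the study's threshold of 0.1, and by DESeq2, the study's own tool, further outside (adjusted p = 0.277). Between single embryos the fold of GCE/GCE over GCE/+ ranged from 1.38 to 2.45, while the 2 GCE/+ embryos differed 1.59-fold and the 2 GCE/GCE embryos 1.11-fold. Since counts are pooled over exons, the spliced forms of *Col2a1* that mark immature and mature chondrocytes are not told apart.

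The 3 chains of type IX collagen were all higher in GCE/GCE cells, and *Col9a1* and *Col9a2* passed the threshold. *Col9a1*, on chromosome 1 from 24177610 to 24252684, had 48.5 and 84.9 CPM in the GCE/+ embryos against 125 and 135 CPM in the GCE/GCE embryos. It rose 1.95-fold (95% interval 1.40 to 2.74), or by 0.97 on the log2 scale (SE 0.21, Benjamini-Hochberg adjusted p = 0.096 by edgeR's quasi-likelihood test). Its genotypes did not overlap, but the 2 GCE/+ embryos differed 1.75-fold. This call was lost with upper quartile normalization (adjusted p = 0.111), with an offset for transcript length (adjusted p = 0.116, edgeR in both) and in DESeq2, the tool the authors used (adjusted p = 0.31).

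*Col9a2*, on chromosome 4 from 121039385 to 121055322, had 89.9 and 108 CPM in the GCE/+ embryos against 138 and 159.7 CPM in the GCE/GCE embryos. It rose 1.50-fold (95% interval 1.26 to 1.80), or by 0.59 on the log2 scale (SE 0.11, Benjamini-Hochberg adjusted p = 0.0678 by edgeR's quasi-likelihood test). Its embryos were closer within a genotype, 1.21-fold apart in GCE/+ and 1.15-fold apart in GCE/GCE cells, and it passed in DESeq2 as well (adjusted p = 0.000336). *Col9a3*, on chromosome 2 from 180597790 to 180622189, had 48.5 and 77.9 CPM in the GCE/+ embryos against 102 and 123 CPM in the GCE/GCE embryos. Its log2 fold change of 0.83 (SE 0.19) missed the threshold (Benjamini-Hochberg adjusted p = 0.112 by edgeR's quasi-likelihood test and 0.376 by DESeq2). An exon of *Tcfl5* on the other strand overlaps *Col9a3* in GENCODE, and fragments there may not have been assigned.

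Of the type XI chains, *Col11a1* rose and had the lowest adjusted p of the 8 genes. *Col11a1*, on chromosome 3 from 114030540 to 114220718 with 67 exons, had 256 and 325 CPM in the GCE/+ embryos against 501 and 499.6 CPM in the GCE/GCE embryos. The 2 GCE/GCE embryos were nearly equal and far from the GCE/+ embryos, which differed 1.27-fold. The rise was 1.72-fold (95% interval 1.42 to 2.10), or 0.78 on the log2 scale (SE 0.12, Benjamini-Hochberg adjusted p = 0.0343 by edgeR's quasi-likelihood test and 7.1e-08 by DESeq2). *Col11a2*, on chromosome 17 from 34039437 to 34066685, had 32.9 and 63.6 CPM in the GCE/+ embryos against 90.3 and 100.3 CPM in the GCE/GCE embryos. The fold was 1.98 (95% interval 1.34 to 2.91), and the GCE/+ embryos differed 1.93-fold. Its log2 fold change of 0.98 (SE 0.24) missed the threshold (Benjamini-Hochberg adjusted p = 0.133 by edgeR's quasi-likelihood test and 0.507 by DESeq2).

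*Col10a1*, on chromosome 10 from 34389981 to 34397085, was barely detected, with 7 and 21 counts in GCE/+ cells and 23 and 11 counts in GCE/GCE cells. These are 0.115 and 0.402 CPM against 0.396 and 0.18 CPM, so the genotypes overlapped. The log2 fold change was 0.19 (95% interval -1.24 to 1.61, Benjamini-Hochberg adjusted p = 0.971 by edgeR's quasi-likelihood test), and changes of either direction within that interval were not detectable at this depth. It overlaps an exon of *Nt5dc1*, which lies on the other strand. Of 5 markers of hypertrophic chondrocytes, which make type X collagen, none passed the threshold in edgeR, 2 (*Spp1*, lower, and *Panx3*, higher) had an unadjusted p under 0.05, and *Spp1* passed in DESeq2. Their CPM summed to 20.1 and 18.0 in the GCE/+ embryos and to 16.4 and 14.2 in the GCE/GCE embryos. Most of that sum was *Spp1*, which other cells also express, with 14.8 and 12.1 CPM against 9.40 and 8.53 CPM. *Panx3*, a channel protein of hypertrophic chondrocytes, had 0.788 and 2.08 CPM against 2.79 and 2.68 CPM. *Ihh*, the signal made by prehypertrophic chondrocytes, had 0.772 and 1.59 CPM in the GCE/+ embryos against 1.53 and 1.60 CPM in the GCE/GCE embryos. *Ibsp* had 2.97 and 2.01 CPM in the GCE/+ embryos against 2.31 and 1.05 CPM in the GCE/GCE embryos. *Mmp13* had 0.755 and 0.21 CPM against 0.327 and 0.376 CPM. The log2 fold changes of *Ibsp* and *Mmp13* were negative (-0.58 and -0.48). For both, as for *Ihh*, the genotypes overlapped.

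*Col27a1*, on chromosome 4 from 63214004 to 63334991 with *Mir455* within its span, had 152 and 166 CPM in the GCE/+ embryos against 188 and 185 CPM in the GCE/GCE embryos. Both GCE/GCE values were higher, by a fold of 1.17 (95% interval 1.02 to 1.35) or 0.23 on the log2 scale (SE 0.09, Benjamini-Hochberg adjusted p = 0.376 by edgeR's quasi-likelihood test). Longer transcripts tended to have higher log2 fold changes across all genes (Spearman's rho 0.256 over 15470 genes, which are not independent replicates), and the transcript of *Col27a1* has 7612 bases. With an offset for that trend the log2 fold change of *Col27a1* was 0.13 (adjusted p = 0.524, edgeR), while that of *Col11a1*, with 7667 bases, was 0.69 and passed (adjusted p = 0.0289, edgeR).

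All 8 genes were among the 15645 that passed the filter on low counts, and 3 of them, *Col9a1*, *Col9a2* and *Col11a1*, rose and none fell at an adjusted p under 0.1. The background over all genes tested was 0.888% higher and 0.895% lower, or 1.78% in either direction. With 7 of the 8 genes, both GCE/GCE embryos were above both GCE/+ embryos, against 19.2% of all genes tested, and for none of the 8 were both below, against 19.1%. The same 7 had an unadjusted p under 0.05 with a higher value in GCE/GCE cells, against 5.54% of all genes. The median log2 fold change of the 8 genes was 0.81, and that of all genes tested was 0.00. DESeq2 passed 2 of the 8, *Col9a2* and *Col11a1*, with 1.62% of its genes called higher. With 2 samples against 2, an exact permutation test of a single gene cannot go below p = 0.333, so these calls rest on a spread that edgeR and DESeq2 share across genes.

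**Figure D2:**
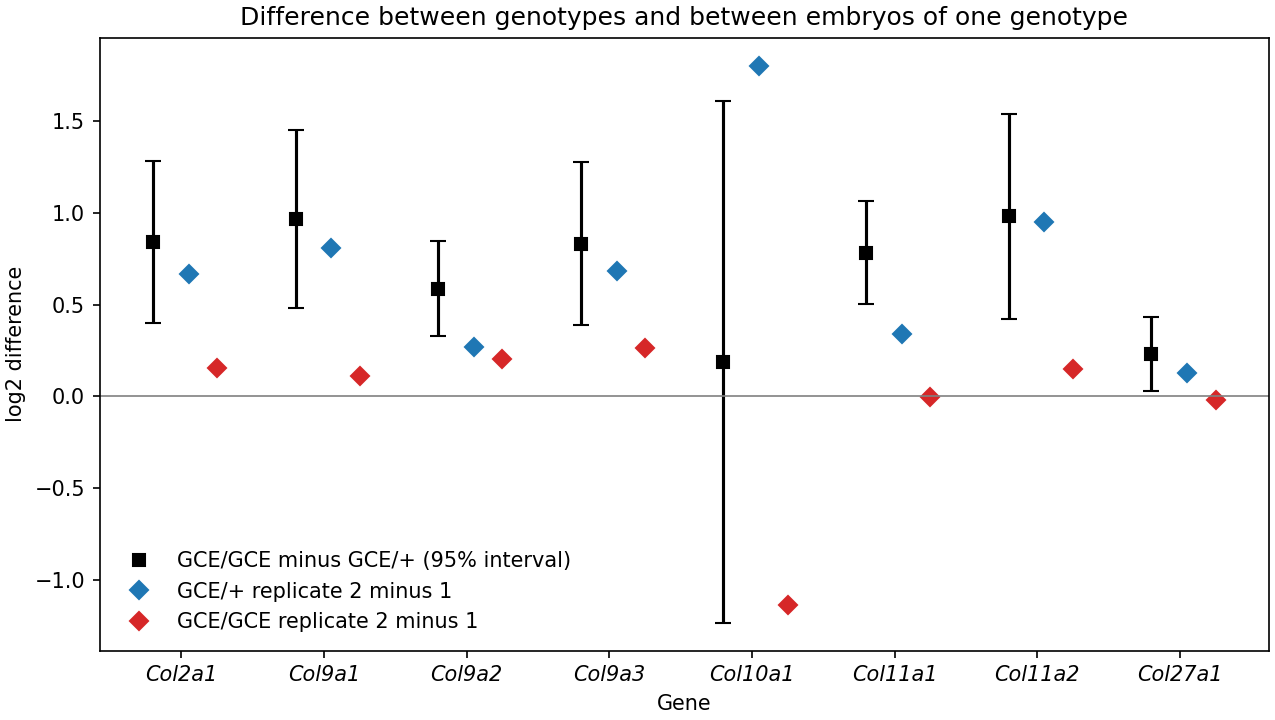
Log2 differences for the 8 genes, with black squares for GCE/GCE minus GCE/+ and their 95% intervals from edgeR, and diamonds for replicate 2 minus replicate 1 within GCE/+ (blue) and within GCE/GCE (red). For *Col11a2* the difference between GCE/+ embryos, 0.95, is nearly that between genotypes, 0.98, whereas for *Col11a1* they are 0.34 and 0.78.

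The spread between the GCE/+ embryos was wide for most of these genes and went 1 way. GCE/+ replicate 2 was above GCE/+ replicate 1 for 8 of 8 genes, *Col10a1* among them with only 7 counts in replicate 1 and 21 in replicate 2. The share of all genes that went this way is not given here, nor for the like count of chondrocyte markers below. On the log2 scale the gap was 0.95 for *Col11a2*, 0.81 for *Col9a1*, 0.68 for *Col9a3*, 0.67 for *Col2a1*, 0.34 for *Col11a1*, 0.27 for *Col9a2* and 0.13 for *Col27a1*. The median gap over the 13469 genes that averaged 1 CPM or more was 0.14. A gap at least as wide as that of *Col11a2* was seen in 0.809% of those genes, one as wide as that of *Col2a1* in 2.37%, and one as wide as that of *Col9a2* in 21.3%. The GCE/GCE embryos were closer, with gaps from -0.02 to 0.27 for the 7 genes other than *Col10a1* and replicate 2 the higher in 5 of 8.

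The size of each fold accordingly depended on which GCE/+ embryo it was set against. Without GCE/+ replicate 1 the log2 fold change was 0.54 for *Col2a1*, 0.61 for *Col9a1*, 0.58 for *Col11a2* and 0.62 for *Col11a1*. Without GCE/+ replicate 2 these were 1.22, 1.43, 1.53 and 0.97. Without GCE/GCE replicate 1, the sample with high *Xist*, the log2 fold changes of these 4 genes were 0.91, 1.01, 1.05 and 0.78. Without GCE/GCE replicate 2 they were 0.76, 0.91, 0.90 and 0.79. The call of *Col9a2* was lost without GCE/+ replicate 1 (adjusted p = 0.151, edgeR). A genotype left with 1 sample shows no spread of its own, so edgeR took it from the other genotype and from all genes. Without GCE/GCE replicate 1 the SE was 0.14 for *Col9a1*, *Col9a3* and *Col11a2* alike, despite their wide GCE/+ gaps. It was 0.16 for *Col11a1* and 0.15 for *Col27a1*, whose gaps were narrower. In that fit the SE did not follow each gene's own GCE/+ gap. Calls at the threshold in these fits thus do not measure the spread between the embryos for each gene. For the 7 genes other than *Col10a1* the direction held in each of the 4 fits, and *Col10a1* went from -0.49 to 1.30.

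**Figure D3:**
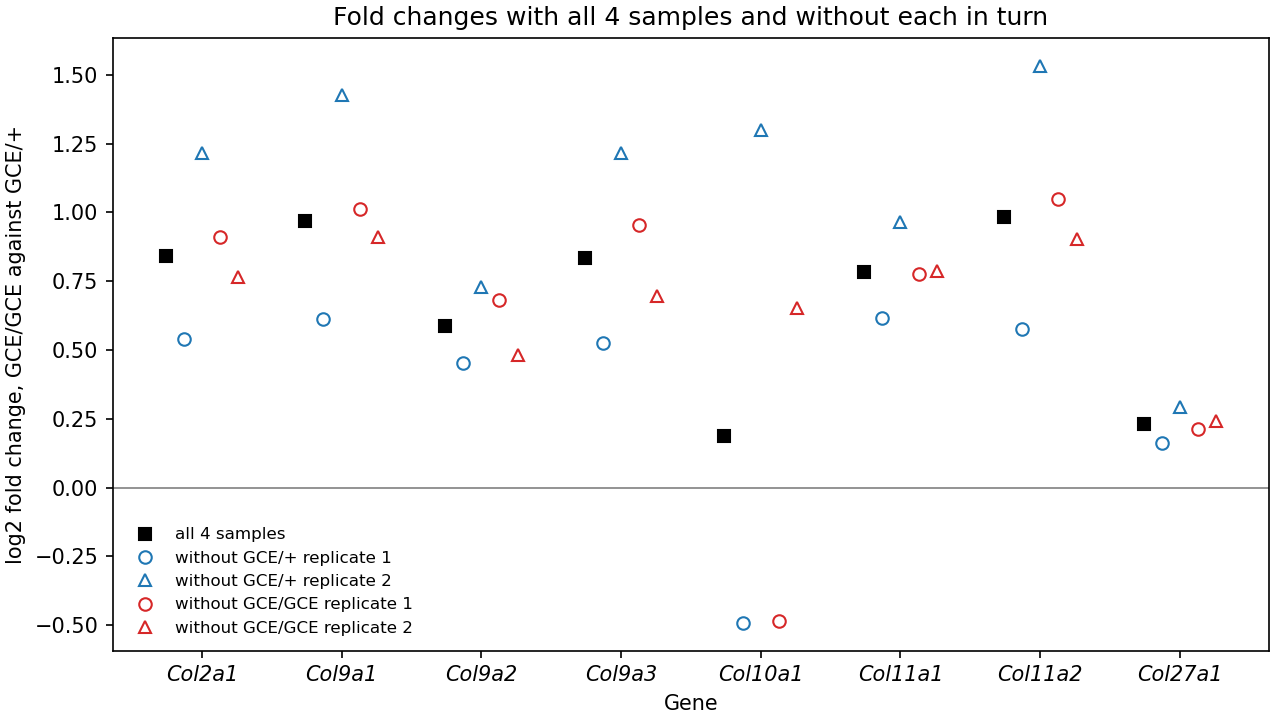
Log2 fold change of each gene, GCE/GCE against GCE/+, with all 4 samples (black squares) and without each sample in turn (open symbols, blue for a GCE/+ and red for a GCE/GCE sample left out). Leaving out GCE/+ replicate 1 gave low and leaving out GCE/+ replicate 2 gave high values, from 0.54 to 1.22 for *Col2a1*.

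Chains of 1 collagen type did not keep the same proportions in all embryos, as levels per kilobase of transcript show. The ratio of *Col9a2* to *Col9a1* was 2.43 and 1.67 in GCE/+ replicates 1 and 2 and 1.45 and 1.55 in GCE/GCE replicates 1 and 2. That of *Col9a3* to *Col9a1* was 1.26 and 1.15 in the GCE/+ embryos against 1.03 and 1.14 in the GCE/GCE embryos. Both ratios were lower in GCE/GCE cells with no overlap, but GCE/+ replicate 2 lay close to the GCE/GCE embryos in each. How often ratios of other gene pairs separate in this way is not given here, so the lack of overlap is a description. *Col11a1* exceeded *Col11a2* by a ratio of 6.14 and 4.02 in the GCE/+ embryos against 4.38 and 3.93 in the GCE/GCE embryos, and here the genotypes overlapped. The ratio of *Col2a1* to *Col11a1* overlapped too, with 2.11 and 2.64 against 2.37 and 2.64. The ratio of *Col11a1* to *Col27a1*, both fibrillar collagens with transcripts of like length, was 1.67 and 1.94 in the GCE/+ embryos against 2.64 and 2.68 in the GCE/GCE embryos. For this pair the genotypes stood further apart than the embryos of a genotype. Ratios depend on the transcript lengths chosen, which affect all 4 samples alike.

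**Figure D4:**
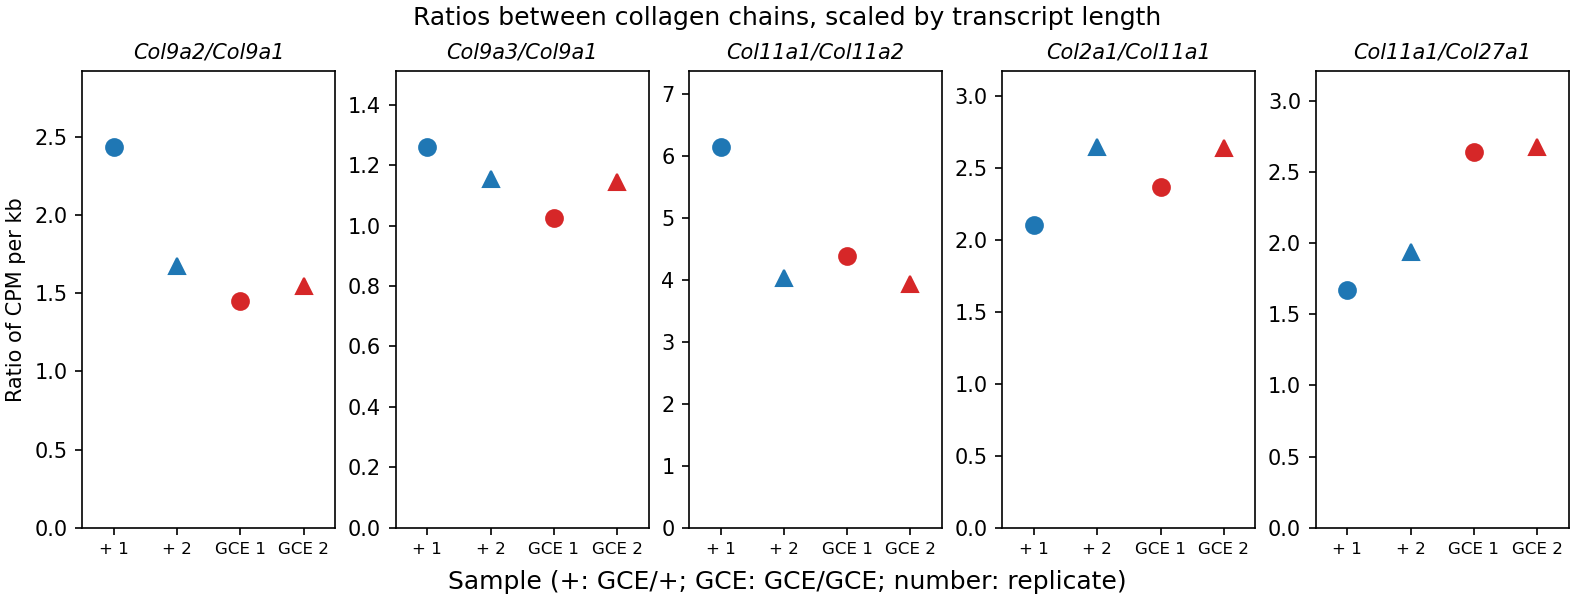
Ratios of CPM per kb between pairs of chains in each sample, on axes that start at 0, with blue for GCE/+ and red for GCE/GCE. *Col9a2* to *Col9a1* was highest in GCE/+ replicate 1, at 2.43, and *Col11a1* to *Col27a1* was higher in both GCE/GCE samples, at 2.64 and 2.68.

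The 8 genes made up 3.42% and 5.21% of all counts on the 43 collagen genes in the GCE/+ embryos against 7.11% and 8.76% in the GCE/GCE embryos. Their summed level was 987 and 1398 CPM in the GCE/+ embryos against 1936 and 2082 CPM in the GCE/GCE embryos. Relative to the summed CPM of the interstitial chains *Col1a1*, *Col1a2* and *Col3a1* this was 5.29% and 8.29% in the GCE/+ embryos against 11.9% and 14.9% in the GCE/GCE embryos. Types I and III thus exceeded the cartilage collagens in every sample. Of the other 35 collagen genes tested, *Col8a1* and *Col25a1* rose, none fell, and the median log2 fold change was -0.04. *Col8a1*, a network-forming collagen, had 47.7 and 50.4 CPM against 76.8 and 82.0 CPM, and *Col25a1*, a transmembrane collagen, had 53.8 and 57.1 CPM against 84.4 and 109 CPM. None of the 7 interstitial fibrillar genes passed the threshold in edgeR, while 3 had an unadjusted p under 0.05 and 3 passed in DESeq2. The highest of the 7 were *Col3a1*, with 9549 and 8787 CPM against 7716 and 6845 CPM, and *Col1a2*, with 5420.0 and 4962 CPM against 5058 and 4482 CPM. Of 6 other fibril-associated collagens, such as *Col12a1* and *Col14a1*, none passed in edgeR or DESeq2, while 3 had an unadjusted p under 0.05 in edgeR.

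Of 33 other cartilage genes tested, 11 rose and none fell, beside 0.888% and 0.895% of all genes tested. In 26 both GCE/GCE embryos were above both GCE/+ embryos, beside 19.2% of all genes. Their median log2 fold change was 0.63. Among the regulators 5 of 9 rose, namely *Sox9*, *Sox5*, *Sox6*, *Trps1*, a GATA-type repressor, and *Wwp2*, a ubiquitin ligase gene that hosts a cartilage microRNA. *Sox9*, the master regulator of chondrocytes, had 78.3 and 98.7 CPM in the GCE/+ embryos against 130.0 and 144 CPM in the GCE/GCE embryos, and was higher by 0.63 on the log2 scale (SE 0.12, Benjamini-Hochberg adjusted p = 0.059 by edgeR's quasi-likelihood test). Among other matrix and secreted products 6 of 12 rose, namely *Matn4*, *Cilp*, *Mia1*, *Mgp*, *Susd5* and *Scrg1*. *Mia1*, a secreted protein of chondrocytes, had 3.79 and 4.28 CPM in the GCE/+ embryos against 7.60 and 9.65 CPM in the GCE/GCE embryos. *Matn4*, a matrilin, had 39.3 and 55.2 CPM in the GCE/+ embryos against 75.1 and 90.8 CPM in the GCE/GCE embryos. None of the 6 proteoglycan and link protein genes passed the threshold in edgeR, while 5 had an unadjusted p under 0.05 and 1 passed in DESeq2. *Acan*, the large proteoglycan of cartilage, had 25.5 and 53.0 CPM against 84.1 and 71.3 CPM (log2 fold change 0.99, SE 0.27, adjusted p = 0.184, edgeR). None of the 5 signalling genes, nor the sulfate transporter *Slc26a2*, passed in edgeR or DESeq2, with 1 signalling gene and *Slc26a2* at an unadjusted p under 0.05. *Pth1r*, the parathyroid hormone receptor, had 82.9 and 63.0 CPM against 68.2 and 64.7 CPM.

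Markers of chondrocytes were higher in the same embryos as the collagen genes. The list held 14 genes other than collagens, all of which also belong to the list of other cartilage genes above. Its counts are therefore a part of the counts given there. Of the 14 genes, 13 were tested, 13 were higher in both GCE/GCE embryos (19.2% of all genes) and 4 passed the threshold, namely *Sox9*, *Sox5*, *Sox6* and *Matn4*. Their summed level was 232 and 336 CPM in the GCE/+ embryos against 475 and 501 CPM in the GCE/GCE embryos, and 13 of 14 were higher in GCE/+ replicate 2 than in GCE/+ replicate 1. *Ucma* was near the lower limit, with at most 0.189 CPM, and none of the 14 was at 0 throughout. The summed CPM of the 8 collagen genes divided by that of these markers was 4.25 and 4.16 in the GCE/+ embryos against 4.07 and 4.15 in the GCE/GCE embryos. The ratio for 1 pair of genes varied more, since *Col2a1* CPM per *Acan* CPM was 14.1 and 10.8 in the GCE/+ embryos against 9.39 and 12.3 in the GCE/GCE embryos. The part of a differing number of chondrocytes among the sorted cells in the collagen results was not tested. Macrophage markers were lower in both GCE/GCE embryos for 6 of 6 genes, beside 19.1% of all genes tested. They summed to 165 and 175 CPM against 109.5 and 70.5 CPM, and *Csf1r*, *Emr1* and *C1qa* were lower past the threshold. All 6 had an unadjusted p under 0.05 in edgeR, and 4 passed in DESeq2. Tendon markers summed to 408 and 344 CPM against 478 and 442 CPM, with *Tnmd*, *Mkx* and *Fmod* higher and *Kera* lower past the threshold. Of these 6 markers 5 had an unadjusted p under 0.05 in edgeR and 5 passed in DESeq2. Markers of osteoblasts summed to 43.3 and 48.1 CPM against 81.2 and 85.9 CPM, with *Runx2* higher past the threshold. Most of that sum was *Runx2*, with 31.6 and 37.4 CPM against 68.2 and 74.7 CPM, while *Alpl* had 9.64 and 8.07 CPM against 10.1 and 8.77 CPM. Markers of muscle, endothelium, red cells, glia and keratinocytes summed to at most 142 CPM in any sample, and none of their genes passed in edgeR, while 4 had an unadjusted p under 0.05 and 1, of muscle, passed in DESeq2. None of the 8 fibroblast markers passed in edgeR. Of the 8, 3 were lower in both GCE/GCE embryos, beside 19.1% of all genes tested. They were *Col3a1*, *Lum* and *Dcn* (log2 fold changes -0.33, -0.34 and -0.68). These 3 had an unadjusted p under 0.05 in edgeR and passed in DESeq2. The rest overlapped between the genotypes, and the median log2 fold change of the 8 was -0.18. The part of these cells was not tested either.

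**Figure D5:**
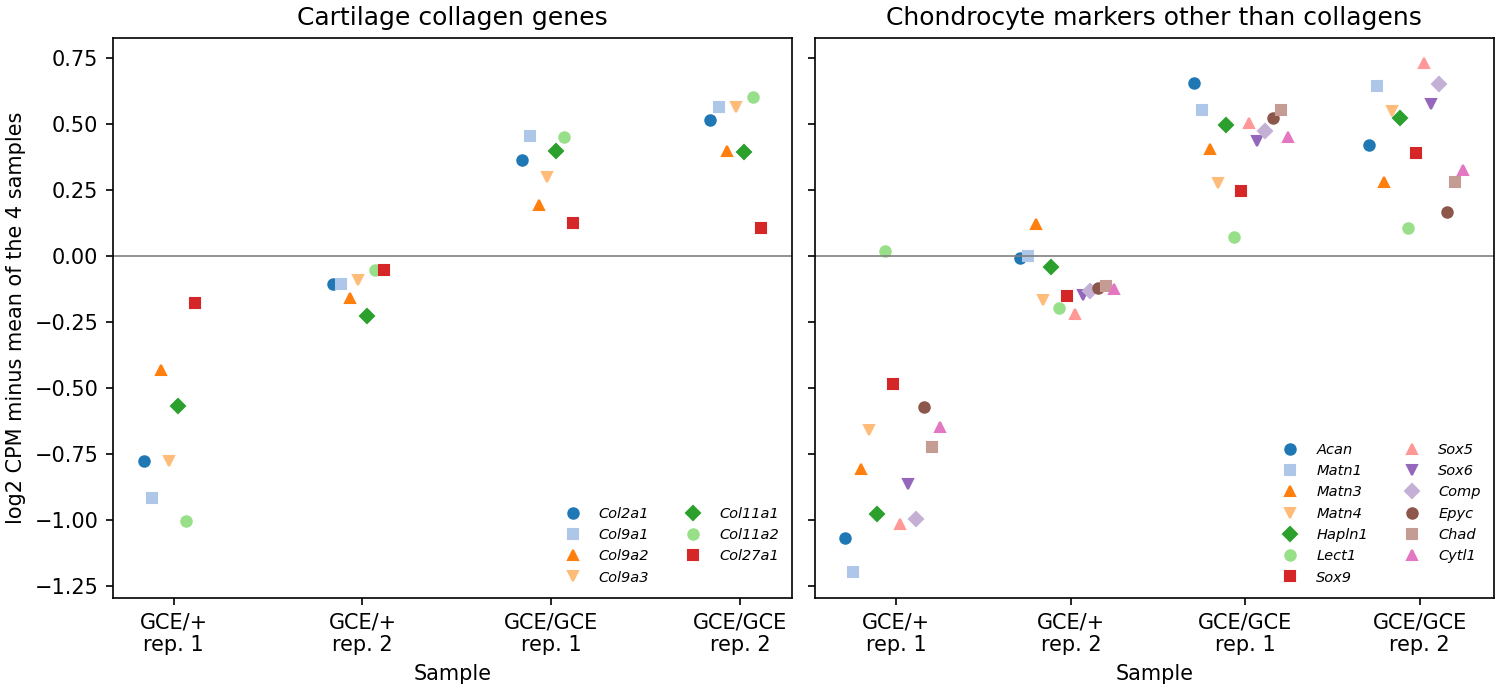
Log2 CPM minus the mean of the 4 samples for the 7 cartilage collagen genes other than *Col10a1* (left) and for 13 chondrocyte markers other than collagens (right). In both panels GCE/+ replicate 1 is the lowest sample for nearly all genes, with *Lect1* the exception, and the 2 GCE/GCE samples lie above 0.

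Genes that modify, fold, export, cleave or crosslink collagen were tested to show whether the machinery shared by all collagens differed too. None of the 30 tested passed the threshold in edgeR, while 6 had an unadjusted p under 0.05 and 3, *P4ha3*, *Plod2* and *Loxl2*, passed in DESeq2. Of the 30, 10 were higher in both GCE/GCE embryos and 5 lower, beside 19.2% and 19.1% of all genes tested, and their median log2 fold change was 0.03. *Serpinh1*, the collagen chaperone HSP47, had 1816 and 1538 CPM in the GCE/+ embryos against 1512 and 1488 CPM in the GCE/GCE embryos. *P4hb*, a subunit of prolyl 4-hydroxylase, had 1369 and 1252 CPM against 1210.0 and 1222 CPM, and *Loxl2*, a lysyl oxidase, had 513 and 512 CPM against 694 and 623 CPM. *Mia3*, an export factor, is listed at 0 counts in all 4 samples. Of 7 collagen receptor genes *Itga11*, an integrin chain that binds fibrillar collagens, rose, with 27.8 and 28.9 CPM against 40.7 and 37.4 CPM. *Itga10*, the integrin chain typical of chondrocytes, had 4.75 and 5.83 CPM against 7.77 and 6.81 CPM (adjusted p = 0.335, edgeR). *Ddr2*, a receptor tyrosine kinase for collagen, had 396 and 467 CPM against 427 and 435 CPM, and *Itgb1*, the common integrin partner, had 692 and 694 CPM against 659.6 and 673 CPM.

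The genes whose levels over the 4 samples were most like the mean profile of the 7 well-detected cartilage collagens were found by the Euclidean distance between log2 CPM centred on each gene's mean, over 13468 genes. Among the 10 nearest other than the collagens were *Eya4*, *Sgcd*, *Oprd1*, *Matn4*, *B4galnt3*, *Prkg2*, *Zbtb16*, *Cdcp1* and *Pcp4l1*, at distances from 0.07 to 0.15 against a median of 0.89. *Eya4*, which encodes a transcriptional coactivator, had 24.3 and 34.9 CPM in the GCE/+ embryos against 48.0 and 55.0 CPM in the GCE/GCE embryos. *Prkg2*, a cGMP-dependent kinase of growth plate cartilage, had 8.23 and 11.1 CPM against 17.1 and 16.7 CPM. Of the collagens themselves, which entered the profile, *Col2a1* ranked 6, *Col9a3* 17 and *Col11a1* 18, followed by *Col9a2* at 55, *Col9a1* at 70, *Col11a2* at 205 and *Col27a1* at 1181. *Col27a1* was thus the least like the others. This ranking over 4 samples is a description with no test.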

How the data were processed

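RNA of *Osr1* GFP+ cells from E13.5 limbs was measured in 2 GCE/+ and 2 GCE/GCE embryos. The deposited files hold raw counts per gene, 1 file per sample. For these, the authors sequenced 50-bp paired ends (TruSeq v2, Illumina HiSeq), aligned with TopHat2 to mm9 and counted with HTSeq in intersection-strict mode. Versions are not given in the sources used here, nor is a strand setting for counting. Counting in this mode leaves out fragments that match overlapping genes.

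Counts summed to 52121596 to 61402140 per sample. Genes passing filterByExpr (15645) were tested in edgeR 4.0.16 (TMM, glmQLFit and glmQLFTest, R 4.3.3) with Benjamini-Hochberg adjustment over all of them and the study's threshold of 0.1, two-sided. Standard errors were taken as the log2 fold change over the square root of F. The code was tested on simulated data. Alternatives were DESeq2 1.42.0 (the study's tool), other normalizations and filters, a replicate block, a transcript length offset, a threshold of 0.05 and each sample left out. P-values set the difference between genotypes against the spread between single embryos, which edgeR and DESeq2 estimate in part from other genes. Symbols were matched to GENCODE M21 on GRCm38 (97.9% of genes) for transcript length and position, since no mm9 annotation was used here, and no coordinate was converted. Promoter sequences are from RefSeq, GRCm38.p6.

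The collagen genes and the gene lists were chosen with earlier results of these data known. Named from each list were genes past the threshold or among the 3 highest in CPM. *Ihh*, *Mmp13*, *Lum*, *Dcn*, *Ucma*, *Lect1*, *Pth1r*, *Slc26a2*, *Itga10*, *P4ha3*, *Plod2* and *Mia3* were named outside this rule, after their values were seen. Of the genes nearest in profile to the collagens, 1 is not reported here.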

Additional observations from a re-analysis of the deposited data

How the results depend on the processing

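Each result was recomputed under the settings named here. All genes past the threshold numbered 279, and were 502 in DESeq2, 425 with no filter on low counts, 487 with an offset for transcript length and a replicate block, and 122 at an adjusted p under 0.05. Of the cartilage collagens 3 passed, against 6 with no filter, with the replicate block and with the block and length offset, and 1 at an adjusted p under 0.05, where the other cartilage genes fell from 11 to 2. *Col9a1* lost its call with upper quartile normalization (log2 fold change 0.95), DESeq2 (0.96) and the length offset (0.96). *Col2a1* passed with no filter (0.84), at least 10 counts in every sample (0.84), the block (0.88) and the block with the length offset (0.83), *Col9a3* with no filter (0.83) and with either block (0.87 and 0.88), and *Col11a2* likewise (0.98, 1.05 and 0.98). Samples of the same replicate number did not deviate together (correlation 0.00246 over 9764 genes), and the labels do not say whether a number marks a litter or day, so the block was not taken as a pairing. With 1 sample left out the ranges were 179 to 868 for all genes, 3 to 6 for the cartilage collagens, 9 to 19 for the other cartilage genes and 0.53 to 1.22 for the median log2 fold change of the cartilage collagens. For single genes they were 0.54 to 1.22 (*Col2a1*), 0.61 to 1.43 (*Col9a1*), 0.45 to 0.73 (*Col9a2*), 0.52 to 1.22 (*Col9a3*), 0.62 to 0.97 (*Col11a1*), 0.58 to 1.53 (*Col11a2*) and 0.16 to 0.29 (*Col27a1*), while *Col10a1* reversed to -0.49 without GCE/+ replicate 1 and to -0.49 without GCE/GCE replicate 1, with 1.30 as its highest value. The lowest count of all genes came without GCE/+ replicate 1 and the highest without GCE/+ replicate 2. The cause of these changes was not tested. *Col11a1* kept its call and *Col27a1* stayed outside the threshold under every setting at 0.1, and *Col10a1* has no value where at least 10 counts in every sample were required.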
